A study of Mus musculus with 8 samples.

Results

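Genes of the megakaryocyte and platelet programme were examined in long-lived blood stem cells of old and young mice. The set is a list of 32 gene symbols drawn up for this purpose and grouped by role into transcription factors, surface receptors, granule genes and cytoplasmic genes. Of these, 30 were rows of the deposited table of 19909 genes and are described here; Gp6 and Tubb1 were not rows of it and were not analysed here. No value of the libraries entered the rule that chose the members, but the list was written with earlier results of these data known.

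The study sequenced RNA from haematopoietic stem cells (HSCs) of bone marrow, sorted from mice homozygous for a GFP-LC3 reporter (Gfplc3/Gfplc3), taken at steady state. LC3 sits on the autophagosome membrane and is consumed as autophagy proceeds, so that GFP brightness is used as an inverse readout of autophagy. In the AThi group (3 libraries, mice older than 24 months) were the 33% of HSCs with the least GFP. In the ATlo group (3 libraries from the same 3 old mice) were the 33% with the most GFP, and the young group (2 libraries, mice of 8 to 12 weeks) held unfractionated HSCs. All 8 libraries thus carry the reporter, the middle of the old GFP range is in neither old group, and the young cells have no matching GFP gate. Each library came from about 10000 cells, and the table's columns carry the tags O10, O11 and O12 in both old fractions and D11 and D12 in the young. The sources say that AThi and ATlo samples are paired but not what the tags stand for; a shared tag is read here as the same mouse.

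Megakaryocytes are the marrow cells that shed platelets, and a share of HSCs already holds transcripts of this lineage, often called platelet priming or platelet bias. Von Willebrand factor (Vwf) and the integrin chain Itga2b (CD41) are the transcripts most used to mark such HSCs in mice, and platelet-biased HSCs are known to become more common with age. In the lineage itself, the factors Gata1 with its partner Zfpm1 (FOG1), and Nfe2, switch on the genes of adhesion receptors, of granule cargo and of the secretion and cytoskeletal machinery that platelets later use.

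Depth was 33960216 to 45830216 recovered reads in the AThi libraries, 54512285 to 61341946 in the ATlo libraries and 44021141 to 45590508 in the young libraries. All 14 HSC markers listed were rows of the table; their summed normalized reads were 148850.0 to 170795 in AThi, 111081 to 131221 in ATlo and 148300.1 to 151682 in young libraries. The 3 libraries tagged 12 stood apart in B cell RNA. Ighm, the heavy chain of immunoglobulin M, had 20937 normalized reads in AThi O12, 7314 in ATlo O12 and 8395 in young D12, against 25.3 to 63.5 in the other 5 libraries. Hbb-bs, an adult globin, had 735, 2032 and 2344 in the same 3 libraries, and 80.5 to 279 elsewhere. Of the B cell markers listed, Ms4a1, Pax5 and Igll1 were not among the rows. Calls on members that were lost without these libraries are named below. In bulk RNA, more cells of a primed kind and more of the transcript per cell cannot be told apart.

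Set per kilobase of exon, which allows a rough comparison of levels of different genes, the members spanned a wide range in HSCs. The length used is that of all annotated exons of a gene together, which can exceed the length of its main transcript. Mmrn1, which encodes multimerin 1, a large protein stored in platelet granules with factor V, had the highest level: 6602 ± 666 normalized reads per kb in AThi, 5485 ± 600.3 in ATlo and 3982 ± 121 in young libraries (SD, n = 3, 3 and 2). Nfe2, F2r, Vamp8 and Pf4 followed it in the young libraries, where their means lay between 942 and 1803 per kb. Neighbours in this order often did not differ beyond their spread: F2r, the thrombin receptor PAR1, had 1675 ± 200.1 per kb and Nfe2 1803 ± 57.8 in young libraries (SD, n = 2). At the low end stood Alox12, the platelet lipoxygenase, with 14.5 ± 8.98 per kb in AThi, 25.6 ± 10.2 in ATlo and 7.68 ± 1.36 in young libraries (SD, n = 3, 3 and 2). P2ry12, the platelet receptor for ADP, averaged 17.2 ± 8.60 per kb in AThi and 14.9 ± 7.74 in young libraries (SD, n = 3 and 2). Ppbp, a chemokine abundant in platelet granules, had between 0 and 48.1 normalized reads in AThi, between 4.76 and 107 in ATlo, and 54.0 and 111 in young libraries. These 3 genes, all abundant in platelets, thus had few reads in the sorted cells.

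**Figure D1:**
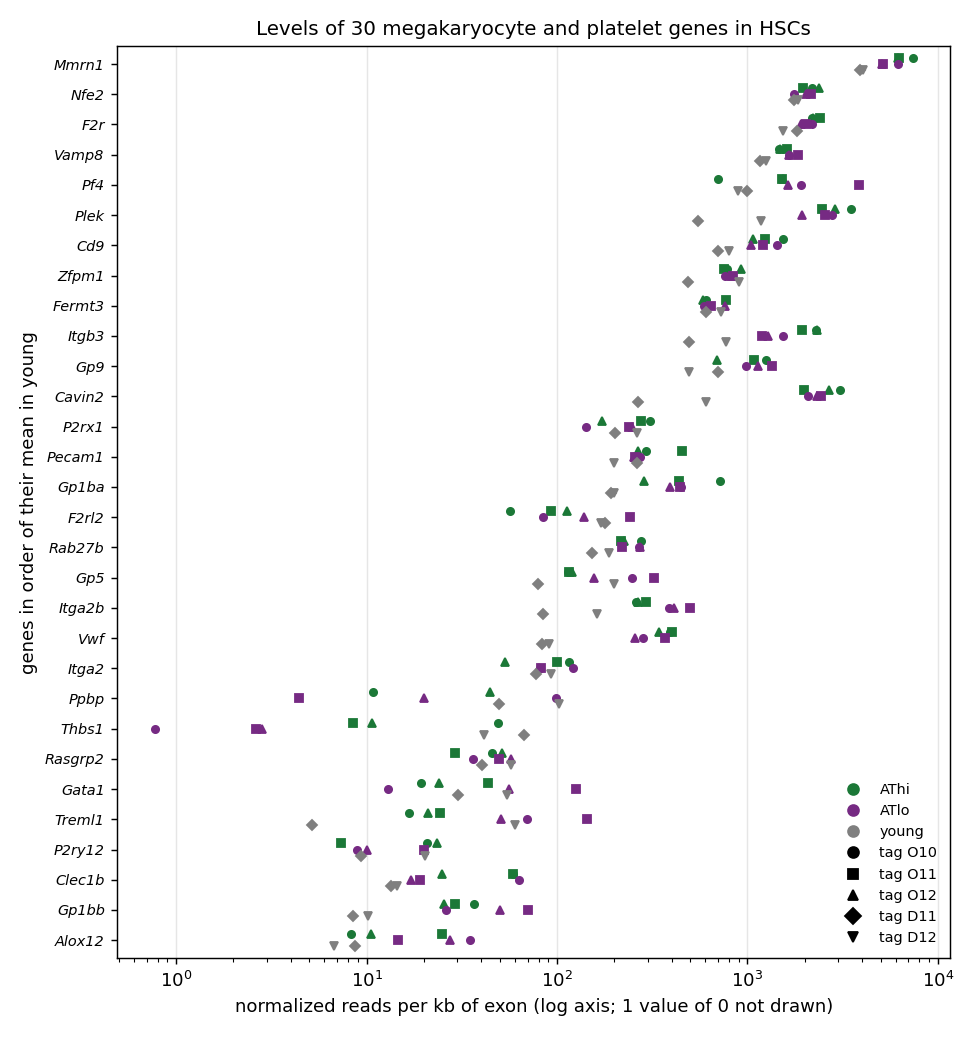
Normalized reads per kb of exon (log axis) of the 30 members, each symbol 1 library, coloured by group and shaped by tag, in order of the mean in young libraries. Mmrn1 lies above all others, and Alox12, Gp1bb, Clec1b and P2ry12 lie near the bottom, with young libraries left of the old ones for Itgb3, Cavin2 and Vwf. Gp1bb shares 1902 of its 2087 exon bases with Sept5 on the same strand, so its place may be too low.

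Against the young libraries, the platelet genes of old HSCs were mostly higher, in both fractions. The authors' deposited table calls 9 of 30 members higher and 0 lower in AThi than in young at an adjusted p below 0.05, where 3.13% of all genes tested were called higher and 1.91% lower. It calls 12 of 30 higher and 1 lower in ATlo than in young, where the background was 2.37% higher and 1.98% lower, again in the authors' deposited table. The median log2 fold change of the 30 members was 0.42 for AThi and 0.60 for ATlo against young, beside 0.00 and 0.01 for all genes tested. These 2 comparisons share the young libraries and are not independent. With edgeR's quasi-likelihood test on the recovered reads, fewer members passed. It called 5 members higher and 0 lower in AThi than in young (background 0.844% and 0.362%), and 3 higher and 0 lower in ATlo than in young (background 0.467% and 0.186%). At an unadjusted p below 0.05, edgeR had 15 members higher and 0 lower in AThi, and 15 higher and 1 lower in ATlo, than in young (background 6.38% and 5.21% for AThi, 5.97% and 6.12% for ATlo). In 13 of 30 members all 6 old libraries lay above both young ones, which 6.07% of all genes did, and in no member did they all lie below, which 4.79% of genes did. The summed reads of 9 granulocyte markers also moved with age, at 7658 to 9303 in AThi, 6834 to 8068 in ATlo, and 3769 and 4309.6 in young libraries, with 2 of the 9 called higher in AThi and 1 in ATlo. Prtn3 was the largest part of that sum in each library, with 3639 to 5765 in AThi, 3105 to 4024 in ATlo, and 2039 and 1684 in young libraries. Csf3r had 2019 to 2616 in AThi, and 1081 and 1484 in young libraries, with no overlap. Its ATlo libraries overlapped the young only through ATlo O12, at 1482. Ngp had 102 to 378 in AThi, and 76.9 and 57.0 in young libraries, and its ATlo libraries overlapped the young. For the other granulocyte markers in the table, the range of each old fraction overlapped that of the young. Elane, Ctsg, Mmp8, Mmp9 and Cebpe were not rows of the table. The 4 T and NK cell markers in the table summed to 2121 to 3172 in AThi, 1403 to 1598 in ATlo, and 1326 and 1192 in young libraries, with 1 called higher in each fraction; Cd3e and Ncr1 were not rows. The 5 endothelial and stromal markers in the table summed to 1201 to 1982 in AThi, 867 to 1294 in ATlo, and 3119 and 1976 in young libraries, with 1 called higher and 1 lower in AThi and 2 lower in ATlo; Cdh5 was not a row. Of the T and NK markers, Klrb1c had 1284 to 2730 in AThi, 721 to 950 in ATlo, and 375 and 353 in young libraries. Cd4 ran the other way, with 2.20 to 295 in AThi, 0.794 to 225 in ATlo, and 503 and 290 in young libraries. The part of the granulocyte, T and NK, and endothelial and stromal cells in the age differences was not tested.

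**Figure D2:**
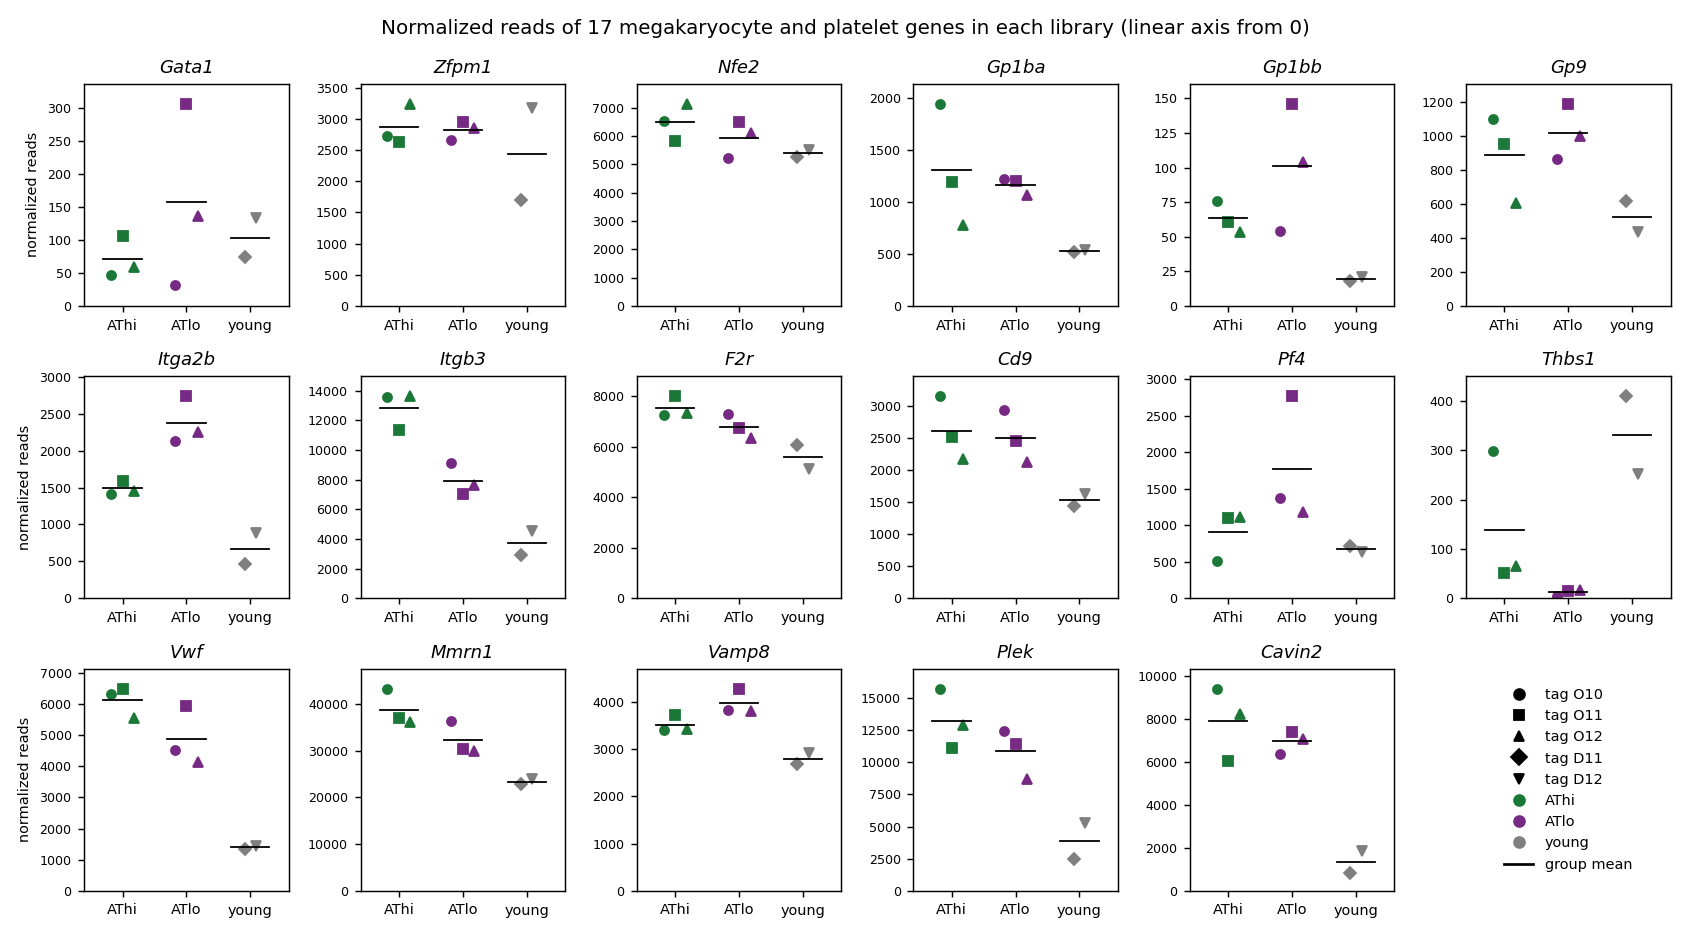
Normalized reads (linear axis from 0) of the 17 members described library by library, with AThi, ATlo and young from left to right, 1 symbol per library shaped by tag, and a line at each group mean. Vwf, Cavin2, Plek, Itgb3 and Itga2b have all 6 old libraries above both young ones, and Thbs1 has the 3 ATlo libraries below all others.

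None of the 3 transcription factors passed against young, in either fraction, in the authors' deposited table or in edgeR. Nfe2, the subunit of the NF-E2 complex that drives late megakaryocyte genes, had 6521, 5827 and 7139 normalized reads in AThi, 5224, 6485 and 6099.6 in ATlo, and 5266 and 5510.3 in young libraries. Zfpm1, the cofactor through which GATA1 acts in this lineage, had 2728, 2636 and 3245 in AThi, 2662, 2957 and 2862 in ATlo, and 1704 and 3172 in young libraries, so the old libraries overlap the widely spread young pair. Gata1, the master factor of megakaryocytes and red cells, had 46.8, 106 and 58.6 in AThi, 31.4, 306 and 137 in ATlo, and 73.8 and 133 in young libraries. The groups overlap for Gata1, and 1 library, ATlo O11, sets the ATlo mean. Their log2 fold changes (± SE) against young for AThi were 0.27 ± 0.15 for Nfe2, 0.24 ± 0.24 for Zfpm1 and -0.55 ± 0.84 for Gata1 in the authors' deposited table, with an adjusted p of 0.417 for Nfe2 and 0.807 for Zfpm1.

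Among the 15 surface receptors, 5 rose in AThi and 6 in ATlo against young, and none fell. The background was 3.13% higher and 1.91% lower for AThi, and 2.37% and 1.98% for ATlo. With edgeR 1 of the 15 was called higher in each fraction, Itgb3 in AThi and Itga2b in ATlo (background 0.844% and 0.467%). The clearest rises were in the chains of integrin αIIbβ3, the fibrinogen receptor that joins platelets to each other. Itgb3, its beta chain (chromosome 11, 104608000 to 104670476, plus strand, GRCm38), had 13572, 11361 and 13615 normalized reads in AThi, 9103, 7023 and 7607 in ATlo, and 2921 and 4541 in young libraries. The 3 groups do not overlap: AThi is highest and young lowest. Itgb3 was higher by 1.78 ± 0.20 (log2 fold change ± SE; adjusted p = 2.57e-16) in AThi and by 1.08 ± 0.20 (adjusted p = 9.18e-06) in ATlo than in young, per the authors' deposited table. The edgeR adjusted p was under 0.05 for AThi and not for ATlo. Itga2b, the alpha chain (chromosome 11, 102453297 to 102470122, minus strand, GRCm38), had 1417, 1594 and 1454 normalized reads in AThi, 2125, 2735 and 2249.8 in ATlo, and 460.2 and 883 in young libraries. Here the order of the old fractions was the other way round, with every ATlo library above every AThi library. Itga2b was higher by 1.15 ± 0.27 (adjusted p = 0.000838) in AThi and by 1.82 ± 0.26 (adjusted p = 1.90e-09) in ATlo than in young, per the authors' deposited table, and edgeR called it in ATlo and not in AThi.

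The receptor for von Willebrand factor is a complex of Gp1ba, Gp1bb, Gp9 and Gp5, of which Gp1ba passed in both fractions, Gp1bb and Gp9 in ATlo, and Gp5 in neither. Gp1ba, the ligand-binding chain (chromosome 11, 70639122 to 70642036, plus strand), had 1942, 1187 and 782 normalized reads in AThi, 1221, 1200.4 and 1064 in ATlo, and 520.5 and 539 in young libraries. All old libraries lay above both young ones, and the AThi libraries were the more scattered. Its log2 fold change was 1.30 ± 0.33 (SE; adjusted p = 0.00368) for AThi and 1.13 ± 0.33 (adjusted p = 0.0205) for ATlo against young in the authors' deposited table. Gp1bb had 76.1, 60.6 and 53.4 in AThi, 54.2, 146 and 104 in ATlo, and 17.7 and 21.1 normalized reads in young libraries, where these values rest on 17 and 20 reads. Gp1bb shares 1902 of its 2087 exon bases with Sept5 on the same strand, so its reads may be split between these genes. Gp1bb reached an adjusted p of 0.0178 in ATlo (log2 fold change 2.39 ± 0.69, SE) and 0.159 in AThi (1.71 ± 0.69) against young in the authors' deposited table. Gp9 had 1099, 954 and 607 in AThi, 865, 1188 and 997 in ATlo, and 615 and 434 normalized reads in young libraries, with AThi O12 between the young values. The calls on Gp1bb and Gp9 were lost without the libraries tagged 12. Gp9 was higher by 0.95 ± 0.31 (SE; adjusted p = 0.0433) in ATlo, and its value for AThi was 0.76 ± 0.31 (adjusted p = 0.158), per the authors' deposited table. Gp5, the subunit that thrombin cuts, had 252 to 265 normalized reads in AThi, 344 to 708 in ATlo, and 175 and 439 in young libraries.

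Of the other receptors, Cd9 and F2r passed. Cd9, a tetraspanin of the platelet surface, had 3151, 2518 and 2178 normalized reads in AThi, 2934, 2455 and 2135 in ATlo, and 1434 and 1635 in young libraries. Tags O10, O11 and O12 run in the same order in both old fractions, with all 6 values above the young. Cd9 was higher by 0.77 ± 0.21 (SE; adjusted p = 0.00912) in AThi and by 0.71 ± 0.21 (adjusted p = 0.0254) in ATlo than in young, per the authors' deposited table. F2r had 7257, 7997 and 7334 in AThi, 7288, 6739 and 6344 in ATlo, and 6058 and 5114 normalized reads in young libraries. The old and young values of F2r do not overlap, but the gap is small. F2r was higher by 0.43 ± 0.13 (SE; adjusted p = 0.0289) in AThi and its ATlo value was 0.28 ± 0.13 (adjusted p = 0.272), per the authors' deposited table. This was the least stable call: only 5 of 18 alternatives kept it, and it was lost without the libraries tagged 12 and without any 1 AThi library.

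Besides Gp5, 7 receptors passed in neither comparison with young. Clec1b, the podoplanin receptor CLEC-2, had 302, 298 and 128 normalized reads in AThi, 324, 96.9 and 87.1 in ATlo, and 68.6 and 73.9 in young libraries, all old values above the young; its adjusted p was 0.109 for AThi and 0.367 for ATlo in the authors' deposited table. For F2rl2 (the thrombin receptor PAR3), Itga2 (the alpha chain of a collagen receptor), P2rx1 (an ATP-gated channel), Pecam1, P2ry12 and Treml1, the range of the 6 old libraries overlapped that of the young. F2rl2 was below both young libraries (445 and 425 normalized reads) in all AThi libraries (142, 233 and 281), but its ATlo libraries had 211 to 603. Treml1, an activation receptor held in platelet granules, differed within the young group itself, with 7.27 normalized reads in D11 and 84.5 in D12.

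Granule genes gave both the steadiest rise and the single fall. Vwf, the multimeric adhesion protein of platelet granules (chromosome 6, 125546774 to 125686679, plus strand), had 6329, 6479.8 and 5542 normalized reads in AThi, 4518, 5930.4 and 4138 in ATlo, and 1334 and 1451 in young libraries. Every old library stood far above both young ones, and the young pair lay close together. Vwf was 4.39-fold higher in AThi (log2 fold change 2.14 ± 0.18, SE; adjusted p = 6.78e-29) and 3.49-fold higher in ATlo (1.80 ± 0.18; adjusted p = 2.30e-20) than in young, per the authors' deposited table. Mmrn1 (chromosome 6, 60924976 to 60989378, plus strand) had 43229, 36908 and 36078 in AThi, 36251, 30287 and 30021 in ATlo, and 22865 and 23872 normalized reads in young libraries. It rose by less than Vwf from a far higher level, and again the O10 library was the highest of each old fraction. The log2 fold change of Mmrn1 was 0.73 ± 0.14 (SE; adjusted p = 7.94e-06) for AThi and 0.46 ± 0.14 (adjusted p = 0.0218) for ATlo against young in the authors' deposited table; the ATlo call was lost without the libraries tagged 12.

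Pf4 (platelet factor 4), a chemokine among the commonest megakaryocyte transcripts, had 508, 1096 and 1110.0 normalized reads in AThi, 1374, 2769 and 1179 in ATlo, and 717 and 642 in young libraries. One library, ATlo O11, had more than any other by far, and AThi O10 lay below both young libraries. Pf4 was higher by 1.38 ± 0.40 (SE; adjusted p = 0.0183) in ATlo than in young, a call lost without ATlo O11, and its AThi value was 0.41 ± 0.40 (adjusted p = 0.787), per the authors' deposited table. Vamp8, the vesicle protein that fuses platelet granules with the membrane, had 3396, 3708 and 3414 in AThi, 3820.1, 4269.6 and 3805 in ATlo, and 2686 and 2904 normalized reads in young libraries. The 3 groups of Vamp8 do not overlap, with ATlo highest. Vamp8 was higher by 0.50 ± 0.13 (SE; adjusted p = 0.00577) in ATlo, a call lost without the libraries tagged 12, and its AThi value was 0.33 ± 0.13 (adjusted p = 0.150), per the authors' deposited table.

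Thbs1 (thrombospondin 1), an alpha-granule protein that is also made by many other cells, went the other way. It had 299, 51.8 and 64.9 normalized reads in AThi, 4.71, 15.9 and 17.1 in ATlo, and 409 and 252 in young libraries; the ATlo values rest on 6, 20 and 22 reads. Every ATlo library was below every other library, and AThi O10 lay among the young values. Thbs1 was lower in ATlo than in young with a log2 fold change of -4.72 ± 0.83 (SE) and an adjusted p of 1.87e-06, and its AThi value was -1.26 ± 0.80 (adjusted p = 0.540), per the authors' deposited table. Without AThi O10 the count of members lower in AThi than in young became 1. Thbs1 shares 208 exon bases with the lincRNA Gm29233 on the opposite strand, and no source used here gives the strand setting of the counting.

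Of the other granule members, Ppbp and Rab27b passed in neither comparison. Rab27b, a small GTPase of granule release, had all 6 old libraries (2305 to 2957 normalized reads in AThi, 2357 to 2920.0 in ATlo) above the young ones (1634 and 2014); its adjusted p was 0.131 for AThi and 0.0514 for ATlo in the authors' deposited table.

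Of the 5 cytoplasmic members, Cavin2 and Plek rose in both fractions (background 3.13% higher for AThi and 2.37% for ATlo). Cavin2, which coats caveolae and binds phosphatidylserine, lies on chromosome 1, 51289126 to 51302960, plus strand. It had 9394, 6060.3 and 8219 normalized reads in AThi, 6385, 7399.9 and 7073 in ATlo, and 813 and 1846 in young libraries. The old fractions overlap each other and stand well above the young. Cavin2 had the largest rise of the 30 members in AThi, 5.93-fold (log2 fold change 2.57 ± 0.29, SE; adjusted p = 1.38e-16), and was 5.23-fold higher in ATlo (2.39 ± 0.29; adjusted p = 4.12e-14) than in young, per the authors' deposited table. Without young D12 these log2 fold changes became 3.28 in AThi and 3.10 in ATlo, and without D11 they became 2.10 and 1.92. Plek (pleckstrin), the main substrate of protein kinase C in platelets, had 15709, 11087 and 12872 in AThi, 12450.2, 11418 and 8672 in ATlo, and 2483 and 5309.6 normalized reads in young libraries. Its young values differ by a factor of 2.14, yet both lie below every old library. Plek was higher by 1.76 ± 0.28 (SE; adjusted p = 2.53e-08) in AThi and by 1.48 ± 0.28 (adjusted p = 1.18e-05) in ATlo than in young, per the authors' deposited table. Without D12 the values for Plek became 2.41 in AThi and 2.13 in ATlo, and without D11 they became 1.32 and 1.04. Plek shares 199 exon bases with Cnrip1 on the opposite strand. Fermt3 (kindlin-3), which activates integrins, and Rasgrp2, the exchange factor for Rap1, had log2 fold changes between -0.23 and -0.00 against young in both fractions in the authors' deposited table. Alox12 passed in neither.

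**Figure D3:**
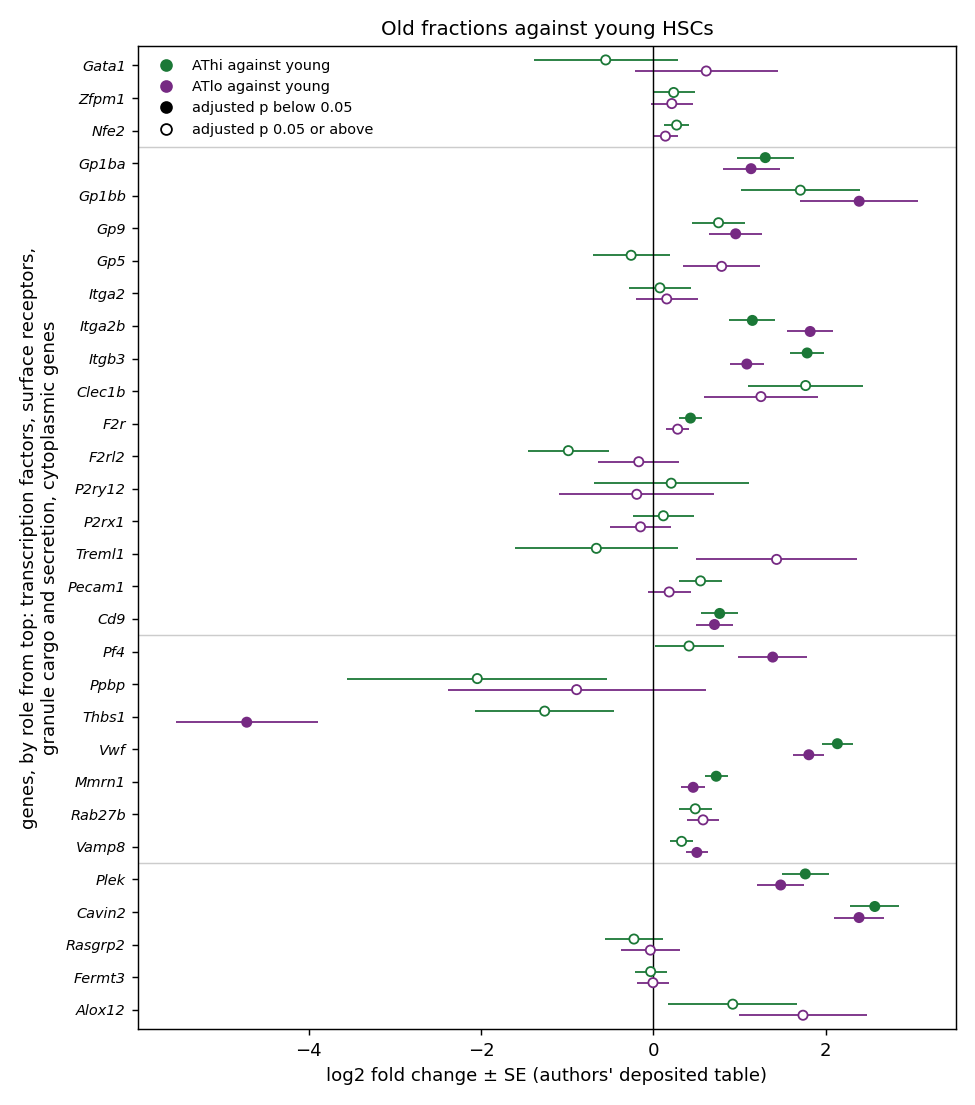
Log2 fold change ± SE of each of the 30 members against young, from the authors' deposited table, for AThi and ATlo, with filled symbols where the adjusted p is below 0.05, ordered by role from transcription factors at the top. The filled symbols lie right of 0 for all calls but Thbs1 in ATlo, at -4.72.

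The calls against young were shared by the 2 fractions for 8 members, all in the same direction: Gp1ba, Itga2b, Itgb3, Cd9, Vwf, Mmrn1, Plek and Cavin2. F2r passed in AThi alone, and Gp1bb, Gp9, Pf4, Vamp8 and Thbs1 passed in ATlo alone. Of these last 6, the direct comparison of AThi with ATlo passed for Thbs1 and for no other. The 5 calls of AThi against young that edgeR also made, Itgb3, Vwf, Mmrn1, Plek and Cavin2, held in all 18 alternatives run, as did Itga2b, Vwf and Cavin2 in ATlo against young. The young libraries differed from each other. D12 had more reads than D11 in 23 of 30 members, against 50.5% of genes with a mean of at least 50, among them Cavin2 (2.27 times), Plek (2.14 times), Itga2b (1.92 times) and Itgb3 (1.55 times). Without young D11 the count higher in ATlo was 5, and without ATlo O11 it was 7, against 12 with all libraries; the count higher in AThi was 7 without D11 and 7 without AThi O10, against 9. The ATlo calls on Gp1ba, Gp1bb, Gp9, Cd9, Pf4 and Mmrn1 were lost with either young library left out, and that on Vamp8 without D11. Without ATlo O11 all of these but Mmrn1 were lost, without ATlo O10 those on Gp1ba, Cd9 and Mmrn1, without ATlo O12 those on Gp1bb and Gp9, and without AThi O11 that on Gp9. Among the AThi calls, Gp1ba was lost without D11 or D12, Cd9 without D11 or AThi O10, and F2r also without D12 or ATlo O11.

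RefSeq promoters of GRCm38.p6 were matched for 24 of the 30 members. The windows of 250 bases upstream of the start are shown for 4 members that passed in both fractions, to set the gene that rose most beside 3 whose windows hold letters of GATA or ETS motifs, the motifs of the families of GATA1 and FLI1. The GATA search used AGATAA along with AGATAG, and also TGATAA along with TGATAG. The ETS search used AGGAAG along with CGGAAG, and the search for NF-E2, whose letters AP-1 shares, used TGAGTCA along with TGACTCA. All were searched on both strands, and no printed match overlaps another. Capitals mark matches.
Gp1ba: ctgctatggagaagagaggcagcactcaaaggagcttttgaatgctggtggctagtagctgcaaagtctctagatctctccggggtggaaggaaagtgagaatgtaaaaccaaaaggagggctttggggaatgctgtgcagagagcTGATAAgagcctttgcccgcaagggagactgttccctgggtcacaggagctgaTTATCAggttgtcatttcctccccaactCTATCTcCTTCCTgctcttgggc
Itga2b: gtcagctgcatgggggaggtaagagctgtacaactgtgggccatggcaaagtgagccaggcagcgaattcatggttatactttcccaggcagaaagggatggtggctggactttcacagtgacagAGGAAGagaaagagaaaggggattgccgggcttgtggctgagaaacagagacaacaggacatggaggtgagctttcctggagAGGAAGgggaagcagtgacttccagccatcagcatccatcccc
Mmrn1: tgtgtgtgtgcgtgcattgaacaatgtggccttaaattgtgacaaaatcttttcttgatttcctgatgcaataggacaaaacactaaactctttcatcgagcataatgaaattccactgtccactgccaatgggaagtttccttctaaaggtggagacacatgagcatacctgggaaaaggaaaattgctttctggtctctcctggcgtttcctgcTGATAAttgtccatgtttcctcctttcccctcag
Cavin2: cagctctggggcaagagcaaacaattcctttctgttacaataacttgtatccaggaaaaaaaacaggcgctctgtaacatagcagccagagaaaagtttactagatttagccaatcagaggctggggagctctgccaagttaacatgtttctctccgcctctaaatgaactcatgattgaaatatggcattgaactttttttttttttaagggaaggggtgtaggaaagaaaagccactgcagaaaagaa
The Gp1ba window is chr11:70638872-70639121 on the plus strand, with GATA letters at 104 to 99, 51 to 46 and 23 to 18 bases and ETS letters at 16 to 11 bases before the start. The Itga2b window is chr11:102469884-102470133 on the minus strand, with ETS letters at 125 to 120 and at 43 to 38 bases before the start. This RefSeq start lies inside the GENCODE gene, whose end at 102470122 falls within the window. The Mmrn1 window is chr6:60944067-60944316 on the plus strand, with GATA letters at 34 to 29 bases before the start. It lies wholly inside the GENCODE gene, which runs from 60924976 to 60989378. The Mmrn1 window may thus not be the promoter of the main transcript. The Cavin2 window, chr1:51288876-51289125 on the plus strand, had no match. Over the 25 promoters of members, 8 held GATA letters, 12 ETS letters and 2 NF-E2 letters, beside 26.5%, 39.2% and 4.46% of all 32851 promoters of the table. The matches are letters in a window and no measure of binding.

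Within old mice, few members passed between the AThi and ATlo fractions. The authors' deposited table calls 2 of 30 higher in AThi than in ATlo, Itgb3 and Thbs1, and 0 lower, where 3.47% of all genes were called higher and 4.43% lower. The median log2 fold change of the members was -0.00, beside 0.02 for all genes, and 15 of 30 were positive. edgeR's quasi-likelihood test called 0 higher and 0 lower (background 0.301% and 1.11%), with 3 higher and 4 lower at an unadjusted p below 0.05 (background 7.86% and 7.56%). limma called 0 in either direction as well, where its background was 0.497% higher and 1.41% lower with a pseudocount of 1, and 0.624% and 1.52% with a pseudocount of 8. All 3 AThi libraries lay above all 3 ATlo libraries in 2 members, against 10.3% of all genes, and below them in 5 members (Itga2b, Gp5, Treml1, Pf4 and Vamp8), against 10.9% of all genes.

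Itgb3 was 1.62-fold higher in AThi than in ATlo (log2 fold change 0.70 ± 0.18, SE; adjusted p = 0.00293), per the authors' deposited table. The lowest AThi library (11361 normalized reads) lay above the highest ATlo library (9103), and the difference had the same sign in all 3 mice. Over 21 alternatives its adjusted p ran between 2.41e-10 and 0.0946. Thbs1 had a log2 fold change of 3.46 ± 0.75 (SE; adjusted p = 0.000206) for AThi over ATlo, per the authors' deposited table. Its adjusted p lay between 4.72e-05 and 0.221 over 21 alternatives. Thbs1 in AThi O10 (299 normalized reads) was several times its level in the other AThi libraries (51.8 and 64.9), and without that library the log2 fold change was 2.22 (adjusted p = 0.0196).

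Fractions of the same mouse can be paired. With the mouse as a block, DESeq2 on the 6 old libraries called 4 members higher and 3 lower in AThi than in ATlo, where 5.26% of genes were called higher and 5.68% lower. The members higher were Itgb3, Thbs1, Vwf and Mmrn1, and those lower were Itga2b, Pf4 and Gp5. edgeR with the same block called Itgb3 alone (adjusted p = 0.0251), with 1 of 30 higher and 0 lower and a background of 0.425% and 1.17%. So the calls on Thbs1, Vwf, Mmrn1, Itga2b, Pf4 and Gp5 depend on the tool. For Itga2b the blocked log2 fold change was -0.67 (DESeq2 adjusted p = 0.000608, edgeR adjusted p = 0.0654), and over all 21 alternatives its adjusted p ran between 0.000608 and 0.275. For Pf4 it was -0.96 (DESeq2 adjusted p = 0.00333; range 0.00333 to 0.525), and Gp5 had a DESeq2 adjusted p of 0.0420 with the block (range 0.0254 to 0.397). Gp5 had 252, 253 and 265 normalized reads in AThi, against 542, 708 and 344 in ATlo libraries.

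Signs within mice ran both ways by gene. In all 3 mice AThi was above ATlo for Itgb3, Pecam1, Cd9, Thbs1, Vwf and Mmrn1. It was below ATlo in all 3 for Gp5, Itga2b, F2rl2, Treml1, Pf4 and Vamp8. The share of all genes with such agreement was not computed, so these 6 members in each direction are a description only. The Cd9 differences were as small as 0.10, 0.04 and 0.03 on the log2 scale. For Vwf and Mmrn1 the DESeq2 blocked differences were small, 0.34 (adjusted p = 0.0440; range over alternatives 0.0204 to 0.568) and 0.26 (adjusted p = 0.00979; range 0.00979 to 0.526) on the log2 scale. Treml1 had 23.4, 34.1 and 29.3 normalized reads in AThi, against 97.4, 202 and 71.5 in ATlo libraries, a difference that missed the threshold in the authors' deposited table (adjusted p = 0.110) and with the block (DESeq2 adjusted p = 0.0546). Its adjusted p ran between 0.0205 and 0.502 over 21 alternatives, and it was called lower in the DESeq2 fit of 2 groups and without young D11 or D12. ATlo O11 was the highest of the 6 old libraries in 9 of 30 members, among them Gata1, Pf4, Treml1 and Gp5, while 17.8% of genes with a mean of at least 50 were highest there. Marker sums moved with the fractions. The HSC sum was higher in AThi (148850.0 to 170795) than in ATlo (111081 to 131221), with 4 of 14 markers called higher. The erythroid sum, over 10 markers, was 26198 to 32794 in AThi and 34387 to 41237 in ATlo, with none called. Most of it was Car2, at 23965 to 32381 in AThi and 30280 to 40295 in ATlo, ranges that overlap. Hbb-bs, Hbb-bt and Alas2 also overlapped between the fractions. The T and NK cell sum was 2121 to 3172 in AThi and 1403 to 1598 in ATlo, with 1 marker called higher. Within it, Klrb1c had 1284 to 2730 in AThi and 721 to 950 in ATlo. Nkg7 ran the other way, at 243 to 392 in AThi and 394 to 533 in ATlo. The endothelial and stromal sum was 1201 to 1982 in AThi and 867 to 1294 in ATlo, also with 1 marker called higher. The 2 mast cell and basophil markers in the table summed to 49.8 to 210.3 in AThi and 229 to 613 in ATlo, with none called. Their part in the differences between fractions was not tested.

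**Figure D4:**
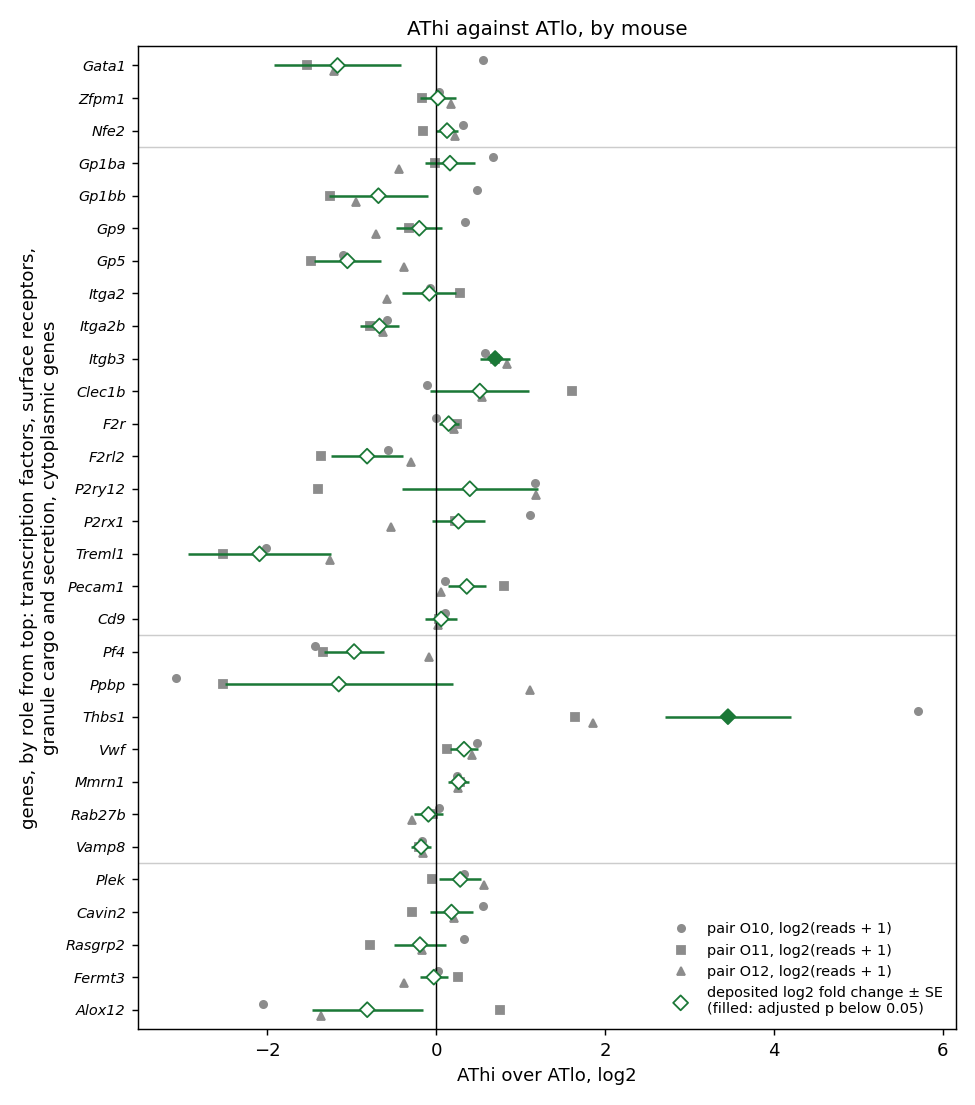
AThi over ATlo on the log2 scale for the 30 members: diamonds are the deposited log2 fold change ± SE (filled where the adjusted p is below 0.05), and grey symbols are the differences within each mouse of log2(normalized reads + 1). Itgb3 and Thbs1 are the filled diamonds, and the 3 mice agree closely for Itgb3, Itga2b, Mmrn1 and Vamp8 and spread widely for Ppbp, Gata1 and P2ry12.

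The opposite direction of the 2 integrin chains shows best as a ratio within each library, a value chosen after the data were seen and given with no test. Itgb3 over Itga2b, per kb of exon, was 8.85, 6.59 and 8.65 in AThi, 3.96, 2.37 and 3.13 in ATlo, and 5.87 and 4.75 in young libraries. The young ratios thus fell between the 2 old fractions, which overlap neither each other nor the young. The AThi and ATlo ratios could not have overlapped, since each gene alone already separated these libraries, in opposite directions. Itga2b by itself was not called between the fractions in the authors' deposited table (adjusted p = 0.0535). Vwf over Pf4 was 0.559, 0.265 and 0.224 in AThi, 0.148, 0.0961 and 0.157 in ATlo, and 0.0835 and 0.101 in young libraries. Here the AThi libraries were the highest, and ATlo and young libraries overlapped.

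**Figure D5:**
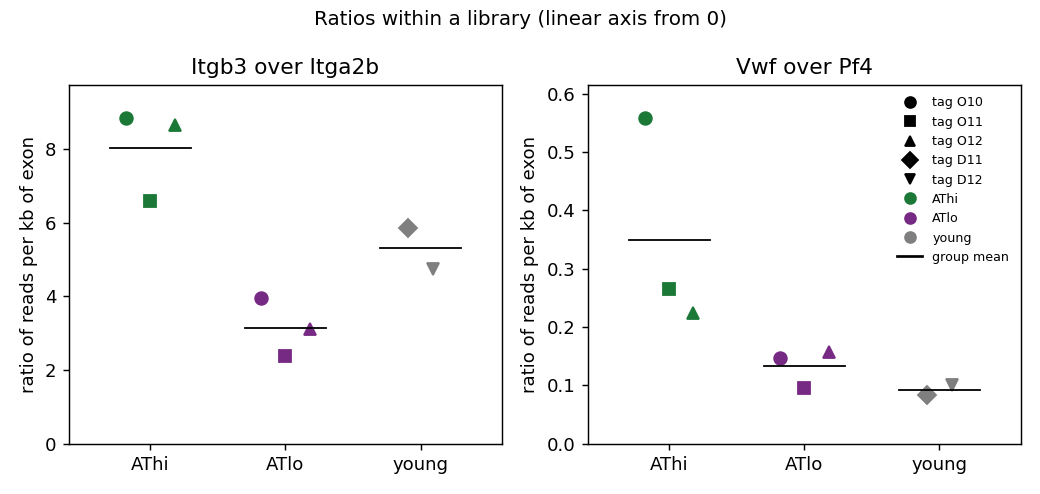
Ratio of reads per kb of exon within each library (linear axis from 0) for Itgb3 over Itga2b and for Vwf over Pf4, with AThi, ATlo and young from left to right and a line at each group mean. The AThi libraries are the highest in both panels; for Itgb3 over Itga2b the ATlo libraries, at 2.37 to 3.96, are the lowest.

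Other genes of the lineage were taken from 5 further lists, of which 158 of 172 genes were in the table. The authors' deposited table calls 12 higher and 2 lower in AThi than in ATlo, 25 higher and 2 lower in AThi than in young, and 23 higher and 7 lower in ATlo than in young. edgeR called 4, 9 and 6 higher in these comparisons and none lower, all at an adjusted p below 0.05, with 155, 157 and 155 of the genes tested in the deposited table. The deposited counts stand beside the backgrounds given above for the same comparisons (3.47% higher and 4.43% lower, 3.13% and 1.91%, and 2.37% and 1.98%). The backgrounds of edgeR were lower (0.301% higher and 1.11% lower, 0.844% and 0.362%, and 0.467% and 0.186%). Without the libraries tagged 12 the calls in either direction numbered 9, 17 and 16, against 14, 27 and 30. Those lost included Runx1 in AThi against ATlo, Mafg, Mef2c, Srgn, Stat3 and Tyk2 in AThi against young, and Runx1 and Socs2 in ATlo against young.

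Several receptors and adhesion genes outside the members rose in both fractions. Selp, the granule protein P-selectin, had 7713 ± 982 normalized reads in AThi, 5309 ± 210.3 in ATlo and 714 ± 159 in young libraries (SD, n = 3, 3 and 2). It was higher than in young by 3.43 ± 0.18 (SE) in AThi and 2.89 ± 0.18 in ATlo, per the authors' deposited table, and edgeR called both. Of 25 such genes in the table, 9 rose and 0 fell in AThi against young (background 3.13% and 1.91%). In ATlo, 6 rose and 1 fell against young (background 2.37% and 1.98%). Jam2, a junctional adhesion molecule called in both fractions, was also higher in AThi than in ATlo, by 1.17 ± 0.18 (SE) in the authors' deposited table. S1pr1, the sphingosine 1-phosphate receptor that guides proplatelets into blood in mice, was higher in AThi than in ATlo by 1.20 ± 0.24. It was called in neither comparison with young, with means of 1739 in AThi, 758 in ATlo and 1053 in young libraries. Tbxa2r, the thromboxane receptor, had 521 ± 35.8 in AThi, 648 ± 84.8 in ATlo and 148 ± 20.5 normalized reads in young libraries (SD, n = 3, 3 and 2).

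Of 56 signalling and cytoskeletal genes, 8 rose and 1 fell in AThi against young (background 3.13% and 1.91%). In ATlo, 12 rose and 2 fell against young (background 2.37% and 1.98%). Fyb, an adaptor that couples receptors to integrin activation, had 6179 ± 529.9 normalized reads in AThi, 5499 ± 378 in ATlo and 2060.0 ± 251 in young libraries (SD, n = 3, 3 and 2). Ehd3, an endocytic ATPase, had 4482 ± 655 in AThi, 4015 ± 553 in ATlo and 1091 ± 175 in young libraries (SD, n = 3, 3 and 2). Among granule genes, 2 of 34 tested rose in AThi (background 3.13%) and 4 of 32 in ATlo (background 2.37%) against young. None of these was called by edgeR. Srgn, the proteoglycan serglycin that holds granule cargo, was called in both fractions (log2 fold changes 0.41 and 0.47 in the authors' deposited table). Clu, the secreted chaperone clusterin, also called in both, had 2494 ± 259 normalized reads in AThi, 2641 ± 616 in ATlo and 406 ± 360.2 in young libraries (SD, n = 3, 3 and 2). Clu was higher by 2.62 ± 0.60 (SE; adjusted p = 0.000806) in AThi and by 2.70 ± 0.60 (adjusted p = 0.000594) in ATlo than in young, per the authors' deposited table. The young libraries were far apart for Clu: without D12 these values became 4.04 and 4.13, without D11 they became 1.92 and 2.00, and edgeR called neither (adjusted p = 0.0546 and 0.0671).

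Of 22 transcription factors of the lineage beyond the members, 4 were called higher and 0 lower in AThi than in young (background 3.13% and 1.91%). Mafg and Mef2c were among those higher. In ATlo, 1 was called higher than in young and 1, Runx1, lower (background 2.37% and 1.98%). None of these was called by edgeR. Runx1, a factor required for both HSC emergence and megakaryocyte maturation, had 16333 ± 722 normalized reads in AThi, 12318 ± 138 in ATlo and 15622 ± 209 in young libraries (SD, n = 3, 3 and 2). For AThi over ATlo its log2 fold change was 0.41 ± 0.09 (SE; adjusted p = 0.000123), per the authors' deposited table. With all 8 libraries edgeR shared this call (adjusted p = 0.0403). On the old libraries alone, with or without the mouse as a block, edgeR did not. In the thrombopoietin receptor signalling list, 2 of 20 genes were called higher and 1 lower in AThi than in young (background 3.13% and 1.91%). In ATlo, 0 were called higher and 3 lower than in young (background 2.37% and 1.98%). None of these was called by edgeR in either fraction. Those higher in AThi were Stat3 (0.57 ± 0.12) and Socs3, a feedback inhibitor induced by STAT3 (1.92 ± 0.41, log2 fold change ± SE, per the authors' deposited table). Socs3 had 545 ± 165 normalized reads in AThi, 297 ± 44.3 in ATlo and 144 ± 71.3 in young libraries (SD, n = 3, 3 and 2). The kinase gene Tyk2 was lower in AThi, with a log2 fold change of -1.12 ± 0.37 (SE; adjusted p = 0.0454, per the authors' deposited table), a value that became -0.25 without D12. Those lower in ATlo were Cish, Socs2 and Gab1. Cish and Socs2 are feedback inhibitors induced by STAT5. Socs2 had 193 ± 177 normalized reads in AThi, 91.7 ± 7.71 in ATlo and 2061 ± 230.1 in young libraries (SD, n = 3, 3 and 2).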

How the data were processed

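RNA of HSCs from 3 AThi, 3 ATlo and 2 young samples was sequenced with paired reads of 50 bases. Per the labels' protocols, libraries were made with a low-input kit, all at the same time, from RNA processed over 2 sort days that are not tied to samples. The submitters' processing notes name GRCm38, STAR, featureCounts and DESeq2 beside FastQC and MultiQC; no source used here gives versions, annotation or strand setting. The normalized signal values that the authors deposited are read counts divided by 1 size factor per library: 100% of values came out as whole reads (tolerance 0.01 of a read), so reads were recovered. The log2 fold changes, their SE, the p-values and the Benjamini-Hochberg adjusted p-values are those of the DESeq2 Wald test (group only, all 8 libraries in 1 fit) that the authors deposited. The score columns that the authors deposited are that test's Wald statistic and, in a pathway table, an activation score for each regulator beside a log2 expression ratio and a p-value of overlap, per the file headers. A refit on the recovered reads gave 1414, 961 and 809 calls, against 1414, 961 and 811 in the deposited tables.

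Members and lists were chosen with earlier results of these data known. Described library by library are members with an adjusted p below 0.05 in any comparison, and Gata1, Zfpm1 and Nfe2; named from the further lists are up to 3 called genes per list and comparison with the smallest adjusted p (1 result is not reported here), and promoters come from members called in both fractions. Gp5, Treml1 and Clec1b are named outside that rule, after their values were seen. Per-kb values use the joined length of all annotated exons of a gene in GENCODE M21. Alternatives were edgeR 4.0.16 (quasi-likelihood), DESeq2 1.42.0, limma 3.58.1 with pseudocounts of 1 and 8, an adjusted p below 0.01, the libraries tagged 12 left out, each library left out, and the mouse as a block. Scripts were tested on simulated counts for AThi against ATlo, where DESeq2 made more false calls than its threshold allows and edgeR did not. The labels say that AThi and ATlo samples are paired, and the pairs are taken from the shared column tags; deviations of same-tag libraries correlated at 0.14, 0.12 and 0.29 across 15658 genes, those of other tags at -0.17 to 0.02. Replicates differed by more than sampling noise. With 2 or 3 mice in a group, intervals are wide.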

Additional observations from a re-analysis of the deposited data

Results flagged for a closer look

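For 2 members the comparison with young differed between the old fractions, by the direct test of AThi against ATlo. Itgb3 rose more in AThi than in ATlo, by a log2 difference of 0.70, and Thbs1 lay 3.46 higher in AThi than in ATlo, both per the authors' deposited table. The Itgb3 difference held with the mouse as a block in both DESeq2 and edgeR, and the Thbs1 difference held in DESeq2 (adjusted p = 0.0121) and not in edgeR (adjusted p = 0.221). Without AThi O10 the Thbs1 difference was 2.22 (DESeq2 adjusted p = 0.0196).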

How the results depend on the processing

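No call on a member, nor on the up to 3 genes named per further list, changed direction in any alternative run. The counts of members below are out of 30 and those of further lineage genes out of 158. For AThi against ATlo, 2 members were higher; edgeR gave 0 with TMM, with DESeq2 size factors, without a filter and on the old libraries alone, and limma gave 0 with either pseudocount. With the replicate block, DESeq2 gave 4 higher and edgeR 1. For members lower, 0 in the authors' deposited table, the DESeq2 fit of 2 groups and the DESeq2 replicate block gave 3 each, and leaving out the libraries tagged 12 gave 1; leaving out 1 library gave 0 to 3 (3 without young D11 or D12, 2 without ATlo O12, 1 without AThi O12). For AThi against young, 9 members were higher; edgeR gave 5 in each of its 3 forms and limma 5 with a pseudocount of 1, and leaving out 1 library gave 7 to 10. Members lower were 0, and 0 to 1 with 1 library left out. For ATlo against young, 12 members were higher and 1 lower; an adjusted p below 0.01 gave 6 higher, edgeR 3 higher and 0 lower in each of its 3 forms, limma 5 higher with either pseudocount, and leaving out 1 library 5 to 13.

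Further lineage genes called in either direction numbered 14 for AThi against ATlo, 27 for AThi and 30 for ATlo against young. For AThi against ATlo there were 9 at an adjusted p below 0.01, 9 without the libraries tagged 12, 4 with edgeR in each of its 3 forms, 1 with edgeR on the old libraries, 6 with its replicate block, 27 with the DESeq2 replicate block, 4 and 5 with limma (pseudocounts 1 and 8) and 8 to 20 with 1 library left out. For AThi against young there were 17 without the libraries tagged 12, 9 with edgeR in each form, 14 and 15 with limma, and 19 to 26 with 1 library left out. For ATlo against young there were 16, 6, 8 and 10 under the same settings, and 12 to 31 with 1 library left out, the lowest without young D11. The causes were not tested. Where a group had 1 library left, that library was assumed to vary like the others. Genes of few reads, such as Ppbp, P2ry12 and Alox12, could differ by much without passing at this depth.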

Other observations

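The authors' deposited table of upstream regulators for AThi against ATlo lists 726 regulators, 3 of them members. Gata1 is listed as activated there, with a score of 2.53 over 13 targets, of which 3 were higher and 10 lower, while its own expression log ratio in the authors' deposited table is -1.17. That ratio has an SE of 0.75 and did not pass (adjusted p = 0.413, authors' deposited table), and the AThi and ATlo libraries overlap. None of the 13 targets is among the 30 members. Itgb3 has a score of -1.97 over 5 targets and Pecam1 has none in the authors' deposited table. Thbs1 is the only member listed as a target there, under 108 regulators.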
